A study of Mus musculus with 6 samples.

Results

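Axon guidance genes were examined at sites that the authors list for the GC-box transcription factor SP1 for a change in chromatin accessibility between mouse neural progenitor cells (NPC) and embryonic stem cells (ESC). The genes were 8: the receptor genes Epha4, Plxna2, Plxnc1, Nrp2 and Unc5b, the membrane semaphorin gene Sema4c, and Srgap1 and Fyn, whose proteins act inside the cell. They were chosen by log2 fold changes and adjusted p-values of this same comparison, known from earlier results, so their values are a description and no test was run on them. A site was counted at a gene where its midpoint lay inside the gene or within 50 kb of either end (RefSeq, assembly GRCm38.p6, which is mm10). That gave 118 of the 9001 listed sites, from 6 at Plxnc1 to 22 at Plxna2. Protein-coding genes with any site by this rule had a median of 6 (quartiles 4 and 9). All 8 genes kept at least 1 site, and no site fell to more than 1 of them.

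Accessibility was measured by ATAC-seq, in which the Tn5 transposase cuts open chromatin, in 3 libraries of NPC and 3 of ESC. Both cell types carry the label R1, a mouse embryonic stem cell line. How the NPC were derived and whether replicate libraries are separate cultures are matters not given in the sources used here, so the p-values measure a spread that may be technical. The authors' deposited table gives each site, 500 bp wide, 1 mean signal (the average normalized count of the libraries), 1 log2 fold change of NPC over ESC with its standard error (SE), and an adjusted p-value. Values of single libraries are not analysed here, which leaves no SD beside a site and the depth per library unknown. The fold changes may have been shrunken toward 0 by the authors' model, since the p-values are smaller than fold change over SE gives; no source used here states this. In bulk libraries, more cells with an open site and a site more open in each cell cannot be told apart.

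Axon guidance receptors sit on growing axons and migrating cells and read attractive or repellent cues. Ephrins act on Eph receptors, semaphorins on plexins with neuropilins as co-receptors, netrins on receptors that include the Unc5 family, and Slits on Robo receptors. Inside the cell these receptors reach the cytoskeleton through GTPase regulators, such as the Slit-Robo GTPase-activating proteins, and kinases such as Fyn. Several of these genes also act in the early neural tube and in blood vessels. Regulatory elements of such genes often lie in their long introns, far from the start.

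At the starts of these genes SP1 sites were not called different between NPC and ESC. RefSeq gives 9 start windows for the 8 genes, each from 250 bp before to 50 bp after a transcription start. A listed site overlapped such a window at 6 genes (Epha4, Plxna2, Nrp2, Sema4c, Srgap1 and Fyn). None of the 6 sites was called at the authors' adjusted p below 0.05, where 42.0% of the 1146 listed sites over any RefSeq start window were called in either direction. The 5 windows that shared from 263 to 300 bases with a site are shown first, to let the letters under these uncalled sites be read. The windows of Plxnc1 and Unc5b follow, because no listed site overlapped them. Capitals mark every match to the GC box GGGCGG, the core of the SP1 motif, or to its reverse complement CCGCCC. Sequences are from RefSeq, GRCm38.p6, 5′ to 3′ on the gene's strand.
Epha4 (chr1:77515039-77515338, minus strand): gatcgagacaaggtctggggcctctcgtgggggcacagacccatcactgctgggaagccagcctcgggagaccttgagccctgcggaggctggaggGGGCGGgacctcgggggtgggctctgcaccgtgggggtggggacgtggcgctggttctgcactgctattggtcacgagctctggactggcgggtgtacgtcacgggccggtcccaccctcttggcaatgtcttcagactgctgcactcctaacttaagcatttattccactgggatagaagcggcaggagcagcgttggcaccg
Plxna2 (chr1:194619579-194619878, plus strand): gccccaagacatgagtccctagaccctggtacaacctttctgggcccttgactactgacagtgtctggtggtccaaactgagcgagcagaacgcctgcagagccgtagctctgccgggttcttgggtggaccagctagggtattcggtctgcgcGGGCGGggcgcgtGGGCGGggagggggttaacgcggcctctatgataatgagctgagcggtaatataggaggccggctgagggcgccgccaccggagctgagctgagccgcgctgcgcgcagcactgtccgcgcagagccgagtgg
Nrp2 (chr1:62703067-62703366, plus strand): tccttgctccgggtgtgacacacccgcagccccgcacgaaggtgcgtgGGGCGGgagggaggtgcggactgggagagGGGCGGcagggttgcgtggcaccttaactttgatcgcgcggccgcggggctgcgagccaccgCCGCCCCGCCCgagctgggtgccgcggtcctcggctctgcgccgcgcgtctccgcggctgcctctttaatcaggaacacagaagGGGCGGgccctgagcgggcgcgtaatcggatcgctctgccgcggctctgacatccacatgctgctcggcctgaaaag
Srgap1 (chr10:122047266-122047565, minus strand): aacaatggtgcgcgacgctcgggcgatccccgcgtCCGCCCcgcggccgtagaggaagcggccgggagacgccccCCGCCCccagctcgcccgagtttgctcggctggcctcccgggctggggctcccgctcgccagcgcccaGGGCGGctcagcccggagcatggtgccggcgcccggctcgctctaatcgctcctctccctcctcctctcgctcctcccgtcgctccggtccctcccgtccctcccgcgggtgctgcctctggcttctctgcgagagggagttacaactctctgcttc
Fyn (chr10:39369549-39369848, plus strand): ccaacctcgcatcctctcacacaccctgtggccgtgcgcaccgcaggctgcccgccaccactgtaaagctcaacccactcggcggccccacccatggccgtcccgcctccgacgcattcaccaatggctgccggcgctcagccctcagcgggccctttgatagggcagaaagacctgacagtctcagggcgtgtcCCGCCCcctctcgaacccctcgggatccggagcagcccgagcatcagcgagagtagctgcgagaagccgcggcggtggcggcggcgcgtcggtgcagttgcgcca
Plxnc1 (chr10:94944796-94945095, minus strand): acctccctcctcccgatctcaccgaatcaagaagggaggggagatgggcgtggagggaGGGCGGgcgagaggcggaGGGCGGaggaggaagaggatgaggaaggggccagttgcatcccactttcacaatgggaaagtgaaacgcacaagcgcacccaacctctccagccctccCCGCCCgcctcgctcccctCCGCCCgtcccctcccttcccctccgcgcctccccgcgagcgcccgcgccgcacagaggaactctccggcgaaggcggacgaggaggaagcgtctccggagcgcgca
Unc5b (chr10:60831532-60831831, minus strand): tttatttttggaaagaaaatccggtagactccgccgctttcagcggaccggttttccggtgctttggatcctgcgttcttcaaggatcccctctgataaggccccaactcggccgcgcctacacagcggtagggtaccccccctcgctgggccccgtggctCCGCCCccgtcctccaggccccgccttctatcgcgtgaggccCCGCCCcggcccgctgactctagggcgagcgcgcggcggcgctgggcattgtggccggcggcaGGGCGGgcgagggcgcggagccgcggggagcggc

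Each of the 9 start windows held at least 1 match to the GC box on either strand, against 35.7% of the 32851 RefSeq start windows in the mouse genome table. In the listed regions, 64.0% of the 1290 windows with a listed SP1 site held a match, and 20.8% of the 2586 windows without one. Epha4 and Fyn had 1 match each, Plxna2 had 2, and Srgap1 had 3. Nrp2 had 5, of which a pair on the reverse strand share a base. Plxnc1, with no listed site over its start, had 4 matches, and Unc5b had 3. The 9 windows were 64.0% to 73.3% G and C, against a mean of 53.8% over all RefSeq start windows. A match is a run of letters and does not show that SP1 binds it.

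The uncalled start sites were among the stronger sites of these genes. In the authors' deposited table the Fyn start site had a mean signal of 56.9, the highest of any site nearest to its own gene, and a log2 fold change of 0.27 ± 0.23 (SE). The Plxna2 start site, with a signal of 34.7, had -0.03 ± 0.28, and the Epha4 start site, with 30.0, had -0.23 ± 0.27 in the authors' deposited table. At Nrp2 the authors' deposited table gave -0.37 ± 0.34, and at Srgap1 0.21 ± 0.37, where the signal was 14.0. The Fyn start site also lies over the start of Gm31616. The Sema4c site shared 43 bases with the downstream of that gene's 2 start windows and had -0.0021 ± 0.33 in the authors' deposited table. The standard errors of the 6 sites ran from 0.23 to 0.37 on the log2 scale.

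Of all 118 sites, 38 were higher in NPC (32.2%) and 31 lower (26.3%) at the authors' adjusted p below 0.05, and 49 were not called. With p-values recomputed from fold change over SE, 33 were higher and 22 lower, and the 14 calls lost had adjusted p-values from 0.0223 to 0.0453 in the authors' deposited table. With the same recomputed p-values and fold changes also centred on the median of all listed sites, 38 were higher and 20 lower. Among all listed sites 22.8% were higher and 32.6% lower at the authors' adjusted p below 0.05, without centring. These shares are to be set beside the first counts only. The median log2 fold change of the 118 sites was -0.04, against -0.29 for all listed sites. Called rises had a median of 3.22 and called falls one of -2.94 on the log2 scale, against 3.03 and -3.24 among all listed sites. The receptor genes alone (Epha4, Plxna2, Plxnc1, Nrp2 and Unc5b) were nearer to all listed sites. Of their 71 sites 18 were higher (25.4%) and 21 lower (29.6%), with a median log2 fold change of -0.22. Single genes leaned different ways: Plxna2, Sema4c and Fyn had more rises than falls, Epha4 and Nrp2 more falls than rises, and Srgap1 had 5 of each. Plxnc1 had 2 rises and 1 fall, and Unc5b 1 rise and 2 falls. No test of a difference between genes was run.

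**Figure D1:**
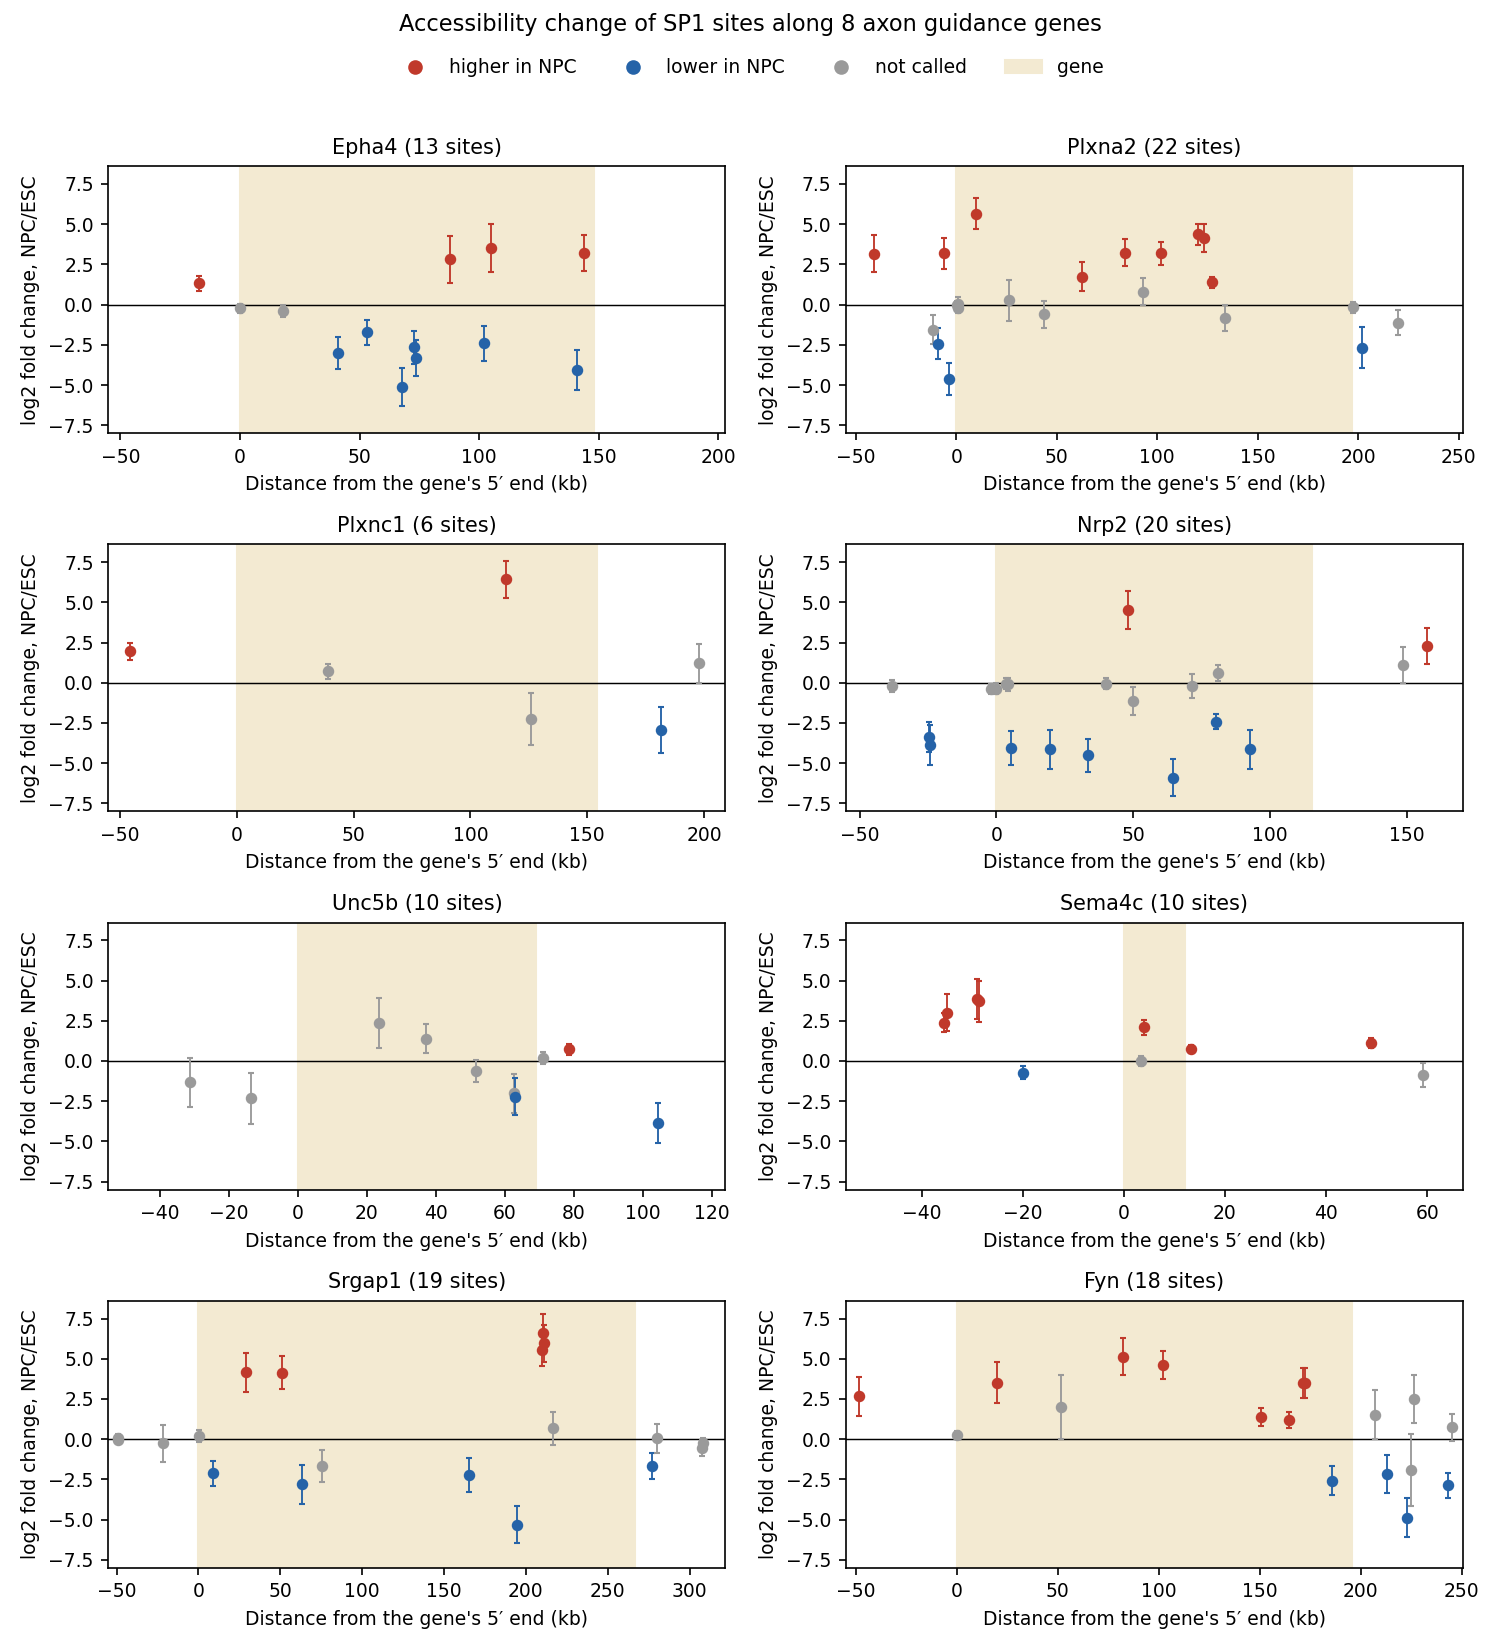
The log2 fold change of NPC over ESC (vertical axis, bars 1 SE) of each SP1 site against its distance from the gene's 5′ end in kb (horizontal axis), in the direction of transcription, with the gene shaded. The 6 sites over the genes' own starts lie between -0.37 and 0.27, while sites inside the genes reach 6.62 at Srgap1 and -5.91 at Nrp2.

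Epha4, on chromosome 1 from 77367182 to 77515107 on the minus strand, encodes a receptor tyrosine kinase that binds ephrins of both classes and repels growing axons. Of its 13 sites 7 were lower in NPC, 4 were higher and 2 were not called. The 7 falls all lay inside the gene, from 41.1 to 141 kb past the 5′ end. The strongest by p-value, 67.8 kb inside (chr1:77447032-77447532), stood at -5.12 ± 1.15 (log2 fold change ± SE, adjusted p = 2.07e-05) per the authors' deposited table. Around it the authors' deposited table listed -3.03 ± 0.99 at 41.1 kb, -1.73 ± 0.79 at 53.0 kb, -2.66 ± 1.03 at 72.9 kb and -3.31 ± 1.12 at 73.5 kb. These 5 neighbouring sites thus formed an unbroken run of falls, although the call at 53.0 kb was lost with recomputed p-values. Nearer the 3′ end falls and rises alternated, with 2.82 ± 1.45 at 88.0 kb, -2.40 ± 1.09 at 102 kb and 3.54 ± 1.49 at 105 kb in the authors' deposited table. The calls at 88.0 and 102 kb were lost with recomputed p-values. The last pair of sites, 2.87 kb apart, had -4.07 ± 1.22 and 3.20 ± 1.14 in the authors' deposited table. All 3 rises inside the gene, and 4 of the 7 falls, were at sites with a mean signal below 5. The rise 17.3 kb upstream (1.31 ± 0.48, 2.48-fold, adjusted p = 0.00623 per the authors' deposited table) had a signal of 14.8. The uncalled sites lay over the start and 18.1 kb inside, where the authors' deposited table gave -0.39 ± 0.35.

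Plxna2 encodes plexin A2, a receptor that conveys class 3 and class 6 semaphorin signals to the cytoskeleton. It spans chromosome 1 from 194619791 to 194816869 on the plus strand. Inside the gene, away from the start, 7 of 13 sites were higher in NPC and none was lower in the authors' deposited table. The largest of these rises lay 9.64 kb from the 5′ end (chr1:194629183-194629683), at 5.66 ± 0.98 (adjusted p = 6.43e-08 per the authors' deposited table). A second group of rises stood from 83.8 to 127 kb, with 1 uncalled site among them. In it the authors' deposited table gave 3.24 ± 0.82 at 83.8 kb, 3.19 ± 0.70 at 102 kb and 4.12 ± 0.88 at 123 kb. The site of smallest adjusted p at any of the 8 genes was in this group, at 120 kb (chr1:194739805-194740305), with 4.37 ± 0.64, or 20.7-fold (adjusted p = 3.60e-10), per the authors' deposited table. Its neighbour at 127 kb had a mean signal of 30.2 and rose 2.62-fold (1.39 ± 0.33) in the authors' deposited table. The rise at 62.4 kb was near the threshold (1.75 ± 0.93, adjusted p = 0.0451 per the authors' deposited table) and was lost with recomputed p-values.

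Outside Plxna2 the direction varied over short distances. Upstream, the authors' deposited table gave 3.17 ± 1.14 at 41.2 kb, -1.57 ± 0.89 at 11.7 kb, which was not called, and -2.42 ± 0.97 at 9.06 kb. Closer to the start a rise of 3.19 ± 0.94 at 6.17 kb was followed by a fall at 3.56 kb, -4.63 ± 1.02 (adjusted p = 1.71e-05 per the authors' deposited table). Beyond the 3′ end 1 of 3 sites was called, a fall of -2.68 ± 1.27 in the authors' deposited table that was lost with recomputed p-values. Over the gene and its flanks 9 of 22 sites were higher, 3 lower and 10 not called. The last 10 had log2 fold changes from -1.57 to 0.80 in the authors' deposited table, and 3 of them lay within 1.06 kb of the 5′ end. Among the 10 was a site 0.682 kb inside the gene, with -0.20 ± 0.34 at a mean signal of 17.2. Another, 0.212 kb beyond the 3′ end, had -0.17 ± 0.33 at a signal of 18.6, both in the authors' deposited table.

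Plxnc1, the gene of plexin C1, a receptor for semaphorin 7A, had the fewest sites. It lies on chromosome 10 from 94790866 to 94945015, minus strand. A site deep inside the gene, 115 kb from the 5′ end (chr10:94829406-94829906), was higher in NPC, and the authors' deposited table gave it a log2 fold change of 6.44 ± 1.14 (adjusted p = 6.35e-08). The site 45.9 kb upstream was also higher (1.97 ± 0.53, 3.92-fold, adjusted p = 0.000516 per the authors' deposited table). Inside the gene the authors' deposited table gave 0.70 ± 0.44 at 39.2 kb and -2.24 ± 1.63 at 126 kb, neither called. The other sites lay beyond the 3′ end, within the neighbouring gene Cep83, and 1 of them was lower (-2.94 ± 1.45 in the authors' deposited table), a call lost with recomputed p-values.

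Nrp2 encodes neuropilin-2, a co-receptor of plexins for class 3 semaphorins and of vascular endothelial growth factor receptors. It lies on chromosome 1 from 62703317 to 62818692, plus strand. Of its 20 sites 8 were lower in NPC, 2 higher and 10 not called. The largest fall of all 118 sites was inside this gene, 64.5 kb from the 5′ end (chr1:62767523-62768023), at -5.91 ± 1.16 (adjusted p = 9.45e-07) per the authors' deposited table. Sites nearer the start also fell, with -4.06 ± 1.04 at 5.38 kb, -4.14 ± 1.21 at 19.4 kb and -4.51 ± 1.03 at 33.5 kb in the authors' deposited table. Farther in, the authors' deposited table gave -2.41 ± 0.48 at 80.3 kb, a 5.33-fold fall at a mean signal of 16.1, and -4.15 ± 1.21 at 92.7 kb. A pair of overlapping sites 24.5 and 24.1 kb upstream fell as well (-3.36 ± 0.94 and -3.87 ± 1.25 in the authors' deposited table). The lone rise inside the gene was 4.53 ± 1.17 at 48.0 kb (adjusted p = 0.000190 per the authors' deposited table), and another lay 41.9 kb beyond the 3′ end (2.27 ± 1.11 in the authors' deposited table). The call of the second was lost with recomputed p-values.

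Changed and uncalled sites stood side by side along Nrp2. Sites 2.05 kb upstream of the 5′ end, over the start, and 3.48, 4.41 and 40.1 kb inside it had log2 fold changes from -0.38 to -0.05 in the authors' deposited table, with mean signals of 10.8 to 20.9. The fall at 5.38 kb stands 972 bp from the uncalled site at 4.41 kb. The fall at 80.3 kb stands 523 bp from an uncalled site with 0.60 ± 0.52 in the authors' deposited table.

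Unc5b encodes a netrin receptor that mediates repulsion, also known as a receptor of vessel endothelium. Its gene lies on chromosome 10 from 60762594 to 60831581, minus strand. Few of its 10 sites were called. Inside the gene 1 of 5 sites was lower, 63.0 kb from the 5′ end, with -2.21 ± 1.17 (adjusted p = 0.0422) per the authors' deposited table. A site that overlaps it had -2.00 ± 1.21 (adjusted p = 0.0694 per the authors' deposited table). The remaining sites inside ranged from -0.64 to 2.37 in the authors' deposited table and were not called. Their mean signals were 1.86 to 5.28, and the log2 standard errors were 0.67 to 1.56 per the authors' deposited table. The called sites beyond the 3′ end belong in position to the neighbouring gene Slc29a3. Over the start of that gene accessibility rose 1.64-fold (0.72 ± 0.36), and within it a site fell (-3.85 ± 1.25, adjusted p = 0.00223), both in the authors' deposited table. With recomputed p-values the fall inside Unc5b and the rise at Slc29a3 were lost, which left 1 of the 10 sites called.

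Sema4c encodes a class 4 semaphorin, a transmembrane ligand of plexin B receptors, and not an axon guidance receptor in the usual sense. The gene is short, on chromosome 1 from 36548639 to 36560699, minus strand, and 8 of its 10 sites lay nearest to another gene. The site of smallest adjusted p lay inside it, 3.95 kb from the 5′ end (chr1:36556498-36556998), and was 4.30-fold higher in NPC (adjusted p = 4.44e-05, SE of the log2 value 0.47, per the authors' deposited table). Only 552 bp away lay the uncalled site at the start. The other 6 rises lay nearest to other genes. Inside Fam178b, from 28.6 to 35.6 kb upstream, 4 sites were higher, from 2.39 ± 0.57 to 3.86 ± 1.24 in the authors' deposited table, and 1 site nearer to Sema4c was lower (-0.72 ± 0.38, adjusted p = 0.0453), a call lost with recomputed p-values. The start sites of Ankrd39 (1.67-fold) and Cnnm3 (2.16-fold) were higher in the authors' deposited table, with mean signals of 46.5 and 37.4. The count of 7 rises around Sema4c becomes 1 of 2 sites when each site is given to its nearest gene alone.

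Srgap1 encodes a GTPase-activating protein that binds Robo receptors and lowers the activity of Cdc42 when Slit is present. It is the longest of the genes, on chromosome 10 from 121780991 to 122047911, minus strand. The largest rise of the 118 sites was 1 of 3 neighbouring rises that stood 210 to 211 kb from its 5′ end. By the authors' deposited table, 3 sites there, on chromosome 10 between 121836708 and 121838003, had 5.96 ± 1.15, 6.62 ± 1.14 and 5.51 ± 0.99, with adjusted p-values of 7.45e-07, 2.56e-08 and 1.82e-07. The first of these overlaps the second, so both share reads. The nearest site on the 5′ side, 194 kb from the 5′ end, went the other way, with -5.32 ± 1.15 (adjusted p = 9.11e-06 per the authors' deposited table).

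Toward the start of Srgap1 rises and falls mixed. The authors' deposited table gave -2.13 ± 0.78 at 9.14 kb, 4.15 ± 1.20 at 29.2 kb and 4.13 ± 1.04 at 51.2 kb. Then followed falls of -2.82 ± 1.22 at 63.4 kb and -2.23 ± 1.07 at 165 kb in the authors' deposited table. Inside the gene and away from the start 5 sites were higher, 4 lower and 2 not called. The fifth fall of the locus lay 9.89 kb beyond the 3′ end (-1.68 ± 0.81 in the authors' deposited table). That call and the one at 165 kb were lost with recomputed p-values. Upstream, the strongest site in any of the 8 windows, with a mean signal of 140, lay over the start of Rxylt1 and was not called (-0.05 ± 0.21 in the authors' deposited table).

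Fyn encodes a Src-family tyrosine kinase that acts downstream of several guidance receptors and in myelinating cells. Its gene spans chromosome 10 from 39369743 to 39565381 on the plus strand. Inside the gene 7 of 9 sites were higher in NPC, 1 was lower and 1 was not called. The largest rises stood in the middle of the gene, with 5.13 ± 1.15 at 82.4 kb and 4.63 ± 0.86 at 102 kb (chr10:39471698-39472198), where the adjusted p was 5.78e-07, the smallest of the gene, per the authors' deposited table. Near the 3′ end 2 sites 1.04 kb apart had nearly the same change, 3.49 ± 0.92 and 3.49 ± 0.91 in the authors' deposited table. Smaller rises lay before them, 2.60-fold at 151 kb and 2.29-fold at 165 kb in the authors' deposited table. Closest to the start was a rise of 3.51 ± 1.29 at 19.9 kb in the authors' deposited table.

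From 186 kb past the 5′ end of Fyn all called sites were falls. The authors' deposited table gave -2.59 ± 0.90 at 186 kb, still inside the gene, and -2.19 ± 1.17 at 17.2 kb beyond the 3′ end. Nearer to Traf3ip2 than to Fyn were falls of -4.88 ± 1.22 (adjusted p = 0.000100) and -2.87 ± 0.79 in the authors' deposited table. None of the 8 sites from 186 kb on was called higher. Those not called varied in sign, with 1.53 ± 1.51, -1.92 ± 2.25, 2.50 ± 1.52 and 0.74 ± 0.84 in the authors' deposited table. Off the start, the single upstream site, at 48.4 kb, was higher (2.66 ± 1.23, adjusted p = 0.0229 per the authors' deposited table). The calls at 17.2 kb beyond the 3′ end and 48.4 kb upstream were lost with recomputed p-values. With each site given to its nearest gene, Fyn kept its 8 rises and 2 of its 4 falls.

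**Figure D2:**
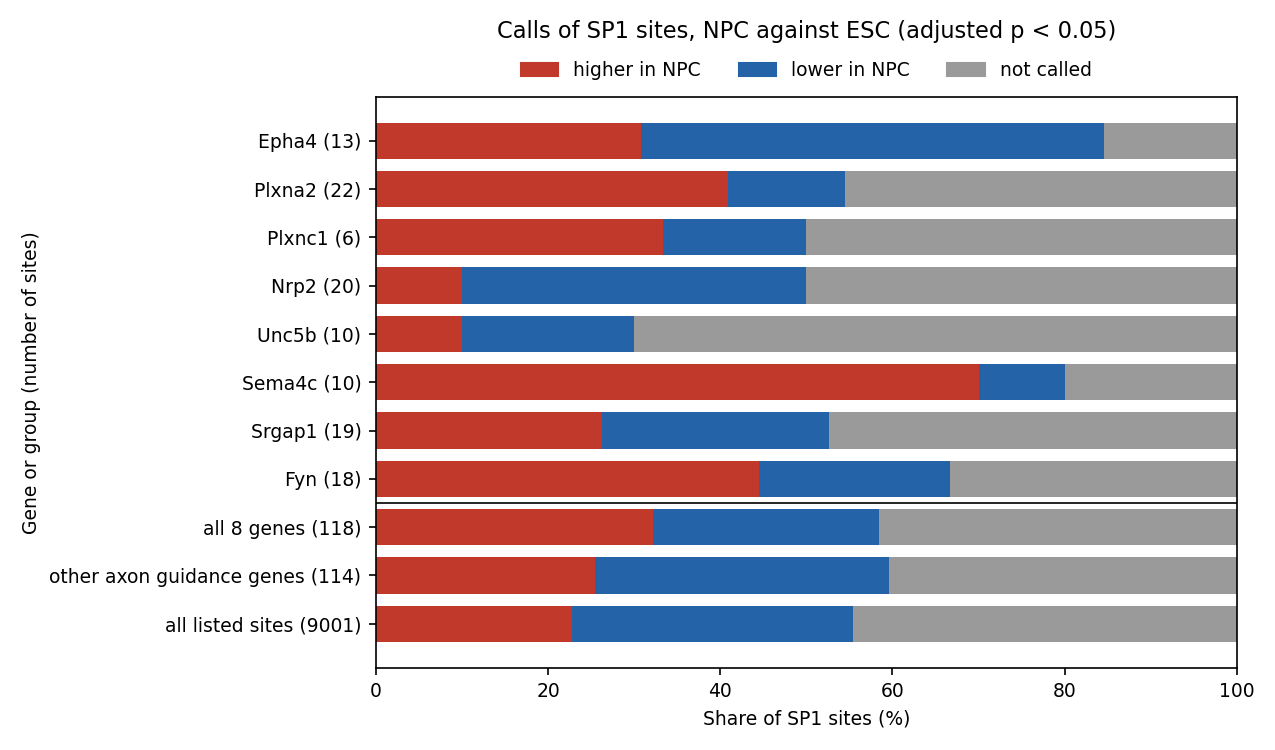
Bars give the share of SP1 sites, in percent, called higher in NPC, lower in NPC or not called, for each gene, for all 8 genes, for other axon guidance genes and for all listed sites, with the number of sites in brackets. Rises take 70.0% of sites at Sema4c and 1 of 10 sites at Unc5b, and falls take 53.8% at Epha4.

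Compared by position, the sites inside the 8 genes and off any start were 66 in number. By the authors' deposited table, 25 of them were higher in NPC (37.9%) and 19 lower (28.8%), against 23.9% and 32.7% of the 3821 listed sites in the same position at any protein-coding gene. Of the 40 flanking sites off any start, 10 were higher and 12 lower. The 28 of them between genes included 6 rises and 8 falls, where 20.5% of the 4034 listed sites between genes and off a start were higher and 37.6% lower. The 12 inside other genes had 4 of each. The 6 sites over the starts of other genes included 3 rises, at Slc29a3, Ankrd39 and Cnnm3, and no fall, where 27.1% of listed sites over a start were higher and 14.8% lower. Median mean signal was 25.3 at the genes' own starts, 38.4 at the starts of other genes, 6.60 inside the genes and 4.29 in the flanks. These counts were not split by signal. The ranges of signal overlapped, with 14.0 to 56.9 at the genes' own starts and 1.16 to 30.2 inside the genes. Whether position or signal goes with the calls was not tested.

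Neighbouring sites of these genes shared a direction about as often as neighbours elsewhere. Where both of 2 adjacent sites were called, they had the same direction in 26 of 39 pairs (66.7%). Among all listed neighbours no farther apart than the widest gap here, 89.7 kb, this held for 64.3% of 2602 pairs. At Nrp2 all 3 such pairs matched and at Fyn 6 of 7 did, while at Epha4 5 of 9 were opposite. Overlapping sites, of which the genes had 7 pairs, share reads.

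**Figure D3:**
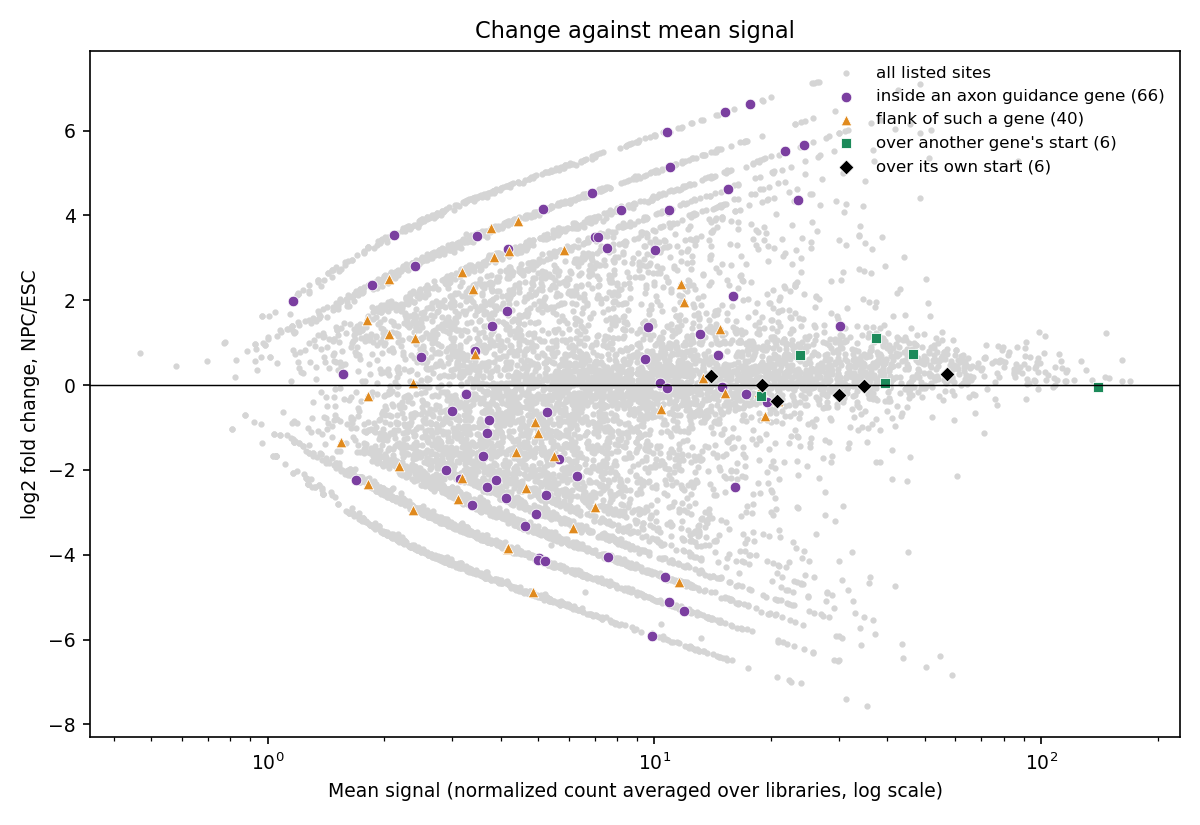
The log2 fold change of NPC over ESC (vertical axis) against mean signal (horizontal axis, log scale) for all 9001 listed sites in grey and the 118 sites of the axon guidance genes in colour, by position. Sites over the genes' own starts lie near 0 at signals of 14.0 to 56.9, and several of the largest changes of sites inside the genes lie along the edges of the grey cloud.

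In the plot of change against signal, the grey points form narrow bands along the upper and lower edges, and several of the largest changes of these genes lie on them. By the authors' deposited table, 5 sites of these genes lay within 0.15 log2 units of the highest value found at a signal within 5% of theirs. They were the 3 neighbouring sites of Srgap1, the site deep inside Plxnc1 and a rise inside Epha4. Each site was itself among those compared, and the Plxnc1 site and the Srgap1 site with 5.51 were themselves the highest. Within 5% of a signal of 20.9, close to the 21.7 of that Srgap1 site, the highest listed value was 6.80. That Srgap1 site may thus lie below the band. Within the same distance of the lowest value lay 2 sites, the largest fall of Nrp2 and a fall beyond the 3′ end of Fyn. At these 7 sites the log2 fold change was about the most extreme that the table holds within 5% of that signal. The cause was not tested.

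From a list of 119 axon guidance genes that are none of the 8, 11 had listed sites by the same rule. They were 2 ligand genes and 9 effector genes by that list, with no receptor gene, so they differ in kind from the 8. Of their 114 sites 29 were higher in NPC (25.4%) and 39 lower (34.2%), against 22.8% and 32.6% of all listed sites. The median log2 fold change of the 114 sites was -0.03. The leading site of a gene is here the called site of smallest adjusted p, which need not have the largest change. Among ligands, Ntn4, which encodes a laminin-like netrin, had 2 rises and 4 falls of 9 sites, with 5.10 ± 1.15 and -4.20 ± 1.22 at the leading ones, both within Ntn4, per the authors' deposited table. Efna2, an ephrin gene in a gene-dense stretch, had 2 rises and no fall among 11 sites, and its leading rise lay nearest to Cirbp. The adaptor gene Nck2 had 7 rises and 1 fall of 10 sites, with 2.96 ± 0.85 at the leading rise in the authors' deposited table. Srgap2, a relative of Srgap1, had 5 rises and 2 falls of 13, with 4.24 ± 0.70 at the leading rise, inside the gene (adjusted p = 2.99e-08 per the authors' deposited table).

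Several effector genes had more falls than rises, as did all listed sites (32.6% lower and 22.8% higher). Of the 94 sites of the 9 effector genes, 37.2% were lower and 26.6% higher. Enah, which encodes an actin regulator at growing tips, had 8 falls and 1 rise of 13 sites, and its leading fall, inside the gene, had -3.39 ± 0.76 in the authors' deposited table. Farp2, a guanine nucleotide exchange factor gene of the plexin A pathway, had 6 falls and no rise of 10 sites, though its leading site lay in position at Stk25 (-4.44 ± 0.69 in the authors' deposited table). The kinase gene Abl2 had 6 falls and 2 rises of 11, with -4.15 ± 0.57 at the leading fall, nearest to Tor3a (adjusted p = 2.05e-11 per the authors' deposited table). Limk2, a kinase of cofilin, had 6 falls and 4 rises of 15 sites, and Cntn2, an axonal adhesion molecule gene, 4 falls and 3 rises of 11. Mical1, whose enzyme acts downstream of plexins, had 2 rises and 1 fall of 7 sites. Ngef, a guanine nucleotide exchange factor gene that acts with Epha4, had 1 of each among 4 sites. The leading rises of Limk2, Mical1, Ngef and Cntn2 lay nearest to other genes (Rnf185, Ppil6, Gigyf2 and Nfasc). So did the leading falls of Mical1 (Zbtb24) and Cntn2 (Dstyk), while those of Limk2 and Ngef lay inside these genes.

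Marker genes of cell types were counted by the same rule. Their lists were chosen with earlier results of these data known, so the counts are no independent check of the labels. Sites of 4 neural progenitor genes were higher in NPC at 17 of 26 sites and lower at 3. Those of 7 pluripotency genes were higher at 12 of 59 and lower at 29. Sites of 6 genes of other cell types, neurons among them, were higher at 14 of 50 and lower at 23. Among all listed sites 22.8% were higher and 32.6% lower. Falls thus outnumbered rises at pluripotency genes, at genes of other cell types and at all listed sites, so falls at pluripotency genes alone cannot check the labels. The part of other cell types in the results above was not tested. Sites just inside the 50 kb limit were those of Fyn and Srgap1 at 49.4 kb, with 0.74 ± 0.84 and -0.05 ± 0.21 in the authors' deposited table. Just outside it were sites 53.3 kb from Fyn (-3.70 ± 1.28), 54.3 kb from Srgap1 (-2.61 ± 0.92) and 56.1 kb from Sema4c (1.16 ± 0.66) in the authors' deposited table. The Fyn and Srgap1 sites outside the limit were called lower (adjusted p = 0.00377 and 0.00574 per the authors' deposited table), and the Sema4c site was not called. The counts of falls at Fyn and Srgap1 thus depend on the limit.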

How the data were processed

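ATAC-seq of 3 NPC and 3 ESC libraries was available as 1 table of the NPC and ESC comparison that the authors made. The submitters' processing notes name mm10, BWA 2.1, Picard 2.23.8, MACS2 2.2.7, SAMtools 1.9 and DESeq2, with no roles. How the SP1 sites were picked, which model was used and whether Tn5 cuts were shifted is not given in the sources used here. Per the file headers, mean signal is a normalized count averaged over libraries, and the authors' deposited columns hold the log2 fold change, its SE, a p-value and its adjusted form. That positive means higher in NPC comes from the name of the table. The table covers chromosomes 1, 10 and 11 to position 20195189. Coordinates are printed as deposited, and the counting base is not stated; overlaps took the start as counting from 0.

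A site was called at a deposited adjusted p below 0.05. P-values recomputed from fold change over SE exceeded the deposited ones at all 118 sites (median ratio 2.45), as shrunken fold changes would give, though no source used here states shrinkage. Printed folds may therefore understate the measured ones. Genes and start windows (300 bases) came from RefSeq GRCm38.p6, and matches to the GC box of 6 letters were counted on both strands. The genes, lists and naming rule were chosen with earlier results of these data known. For each gene the rule names sites at its ends, the leading called sites in each direction, the strongest site and other called sites along it. Exon and intron positions, and sequences of sites away from starts, were not analysed here. Python 3.11.15, pandas 2.3.3, numpy 2.4.6 and scipy 1.17.1 were used. The calling and window functions were tested on simulated data.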

Additional observations from a re-analysis of the deposited data

How the results depend on the processing

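No paired analysis was possible because the table holds no value per library, and leaving out replicates was not run for the same reason. Of the 118 sites, adjustment over the listed sites alone changed no call. P-values recomputed from fold change over SE, held to the largest deposited p-value that was called (0.0272) since the ranks of unlisted sites are unknown, left 33 rises and 22 falls; 5 rises and 9 falls were lost, among them the only fall at Plxnc1, the only fall at Sema4c and the only rise at Unc5b, and none changed direction. The counts of rises (38, 32.2%) and falls (31, 26.3%) became 25 and 19 with the 70 sites inside the genes alone (35.7% and 27.1%). With the 59 sites of at least median signal, rises numbered 26 (44.1%) and falls 11 (18.6%). The shares of all listed sites at such signal are not given here. These shares are therefore not to be set beside the 22.8% and 32.6% of all listed sites at any signal. Over all 118 sites, falls numbered 20 with recomputed p-values and fold changes centred on the median of all sites together, and 20 at an adjusted p below 0.01. Rises under these settings, in the same order, numbered 38 and 30. Shares of all listed sites under these settings are not given here. For the other axon guidance genes, rises (29) and falls (39) of 114 sites became 13 and 22 of 57 within 10000 bp, and 12 and 19 of 46 inside genes. They became 16 and 24 of 60 with nearest genes alone, and 19 and 19 of 71 at median signal or above. Their rises numbered 18 at an adjusted p below 0.01. The median log2 fold change of the 118 sites ran from -0.05 to 0.24 over 7 alternatives; centring gives 0.24 by construction, a shift by 0.29. The 5 falls at Srgap1 became 3 with recomputed p-values and 2 with centring as well, and the 3 at Plxna2 became 2 and 1; the 2 at Unc5b became 1, and those at Plxnc1 and Sema4c 0, under both. Few reads per site limit single values.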
